A study of Mus musculus with 2 samples.

Results

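MHC class II high C1q macrophages were followed in mouse prostate tumours given either vehicle or RP-6306 and taken at day 10. They were selected on measured transcripts and are the 227 cells that remained after a set of limits on UMIs (unique molecular identifiers, 1 per captured transcript) had been applied to 20198 deposited barcodes. A cell had to show at least 500 detected genes, at most 15% mitochondrial UMIs and at most 3 UMIs of the epithelial keratins Krt8 and Krt18 together. It also had to carry at least 3 UMIs summed over C1qa, C1qb and C1qc and at least 20 summed over Cd74, H2-Aa, H2-Ab1 and H2-Eb1. Cells with more than 2 UMIs of Arg1, or more than 1 UMI of Folr2, Lyve1 and Fcna together, were left out. The vehicle library held 91 such cells and the RP-6306 library held 136, among 9540 and 10308 barcodes that passed the first 2 limits. Of the 523 C1q-positive cells that met the gene, mitochondrial and keratin limits, 296 failed another limit of the rule and served as the comparison. The levels of the genes used for the choice are therefore described below without support being drawn from them.

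The tumours came from RM-1 cells (a prostate cancer line of the mouse, labelled wild type) injected under the skin of C57BL/6 mice. RP-6306 inhibits PKMYT1, the kinase that places an inhibitory phosphate on CDK1 and so holds back entry into mitosis. Each treatment is represented by 1 library of whole-tumour cells made with a 10x Genomics 3' kit, and the labels do not make clear how many mice each library holds. With 1 library per treatment, no difference could be compared with the spread between animals, and no p-value was computed. All intervals are 95% intervals that cover counting error only.

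Macrophages present antigen to CD4 T cells on MHC class II molecules, heterodimers that are assembled around the invariant chain Cd74 and loaded with peptide in endosomes with the help of the H2-DM chaperones. The class II genes share a promoter module in which an X box binds the RFX complex and a Y box binds NF-Y, and the coactivator CIITA, encoded by Ciita, is recruited to both. C1q, the first component of the classical complement pathway, is made largely by macrophages and is widely used to mark tumour macrophages. Interferon gamma is the best known inducer of CIITA in macrophages, and of chemokines such as Cxcl9.

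Promoters of some class II genes are shown first, because H2-Aa and H2-Eb1 help define the cells and because H2-DMa and H2-DMb1 were higher in them. The 130 bases before the RefSeq start were read in the direction of transcription (GRCm38.p6), for genes that all lie in the MHC region of chromosome 17. Both strands were searched for the Y box core GATTGG and for the X box core AACNGATG, and the matches to the 2 motifs do not overlap in these windows. Matches are in capitals, and a Y box match on the opposite strand reads CCAATC.
H2-Aa, minus strand, chr17:34287824-34287953: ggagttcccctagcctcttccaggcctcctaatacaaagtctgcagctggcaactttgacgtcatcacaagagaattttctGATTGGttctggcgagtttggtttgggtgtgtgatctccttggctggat
H2-Eb1, plus strand, chr17:34305737-34305866: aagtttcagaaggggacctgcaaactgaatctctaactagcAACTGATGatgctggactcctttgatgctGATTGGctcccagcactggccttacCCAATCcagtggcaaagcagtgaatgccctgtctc
H2-DMb1, plus strand, chr17:34153061-34153190: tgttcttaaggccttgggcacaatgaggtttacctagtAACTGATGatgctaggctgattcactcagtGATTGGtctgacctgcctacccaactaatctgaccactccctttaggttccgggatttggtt
H2-DMb2, plus strand, chr17:34145119-34145248: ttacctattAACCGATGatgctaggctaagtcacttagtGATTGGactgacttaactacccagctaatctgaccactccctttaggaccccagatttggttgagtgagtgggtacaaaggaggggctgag
The 4 windows shown are those with a match. The Y box core was found in each of them, and the X box core in those of H2-Eb1, H2-DMb1 and H2-DMb2. Among 32851 promoter windows of the same length, 10.1% held the Y box core, 0.98% the X box core and 0.0883% both. Neither core was found in the windows of H2-DMa, for which RefSeq lists 2 starts, and these are not shown. Of the class II genes of the rule, H2-Ab1 had no promoter entry and Cd74 was not searched. A match is a description of letters and not a measured binding site.

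The label was checked against the data first. All 18 genes of a macrophage identity list were measured in these cells, among them lysozyme, Lyz2, and Fcer1g, an Fc receptor signalling chain. Levels are given as CPM, a gene's UMIs summed over cells per 1000000 UMIs of those cells. Lyz2 stood at 5489 CPM in the vehicle cells and 4347 CPM in the RP-6306 cells, and Fcer1g at 3351 and 3284 CPM. Compared with the other C1q-positive cells of the same library, 10 of the 18 were lower in both libraries and 3 were higher. Of all genes tested outside the rule, 34.2% were lower and 27.7% higher in both. The list therefore marks macrophages but does not set these cells apart from the others. T cell receptor and other T cell markers were all at 0 in the vehicle cells, and 6 of 12 were at 0 in the RP-6306 cells, where the list summed to 9.34 CPM. Of 15 dendritic cell markers, 9 were at 0 in the vehicle cells and 8 in the RP-6306 cells, including Flt3, Clec9a and Cd209a in both. The dendritic list summed to 94.8 and 102.7 CPM, and Batf3 supplied 27 of its 50 UMIs in the vehicle cells and 28 of 66 in the RP-6306 cells. Keratin-positive tumour cell markers summed to 140 and 118 CPM, against 2526 and 2141 CPM in barcodes rich in keratin and without C1q. Neutrophil markers summed to 299 and 226 CPM, of which Mmp9, a gelatinase gene, supplied 140 of 158 and 109 of 145 UMIs, while S100a9, Retnlg and Cxcr2 were at 0 in both. Fibroblast markers summed to 140 and 106 CPM, and endothelial, NK cell, B cell and mast cell markers to at most 43.6 CPM each. In the vehicle library 37 of 91 of the cells, and in the RP-6306 library 47 of 136, carried at least 2 UMIs of lineage markers of other cell types. Mmp9 is among these markers. It was found in 28 vehicle and 24 RP-6306 cells, and had 773 and 691 UMIs in the other C1q-positive cells. Other such markers included Pecam1, found in 16 vehicle and 18 RP-6306 cells, and Col3a1, with 30 of its 54 vehicle UMIs in a single cell. Whether the cells so marked are doublets or other cell types was not tested. Their part in the results was not tested beyond leaving them out, which can also remove macrophages with Mmp9. A doublet caller was not run.

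Cxcl9 and Cd72, which the label also names as markers, were each found in a minority of these cells. Cxcl9, the chemokine ligand of CXCR3, had 7 UMIs in 3 of 91 vehicle cells and 45 UMIs in 18 of 136 RP-6306 cells. Its level was below that of the other C1q-positive cells in the vehicle library (log2 ratio -0.77) and above it in the RP-6306 library (3.19). In cells thinned to 2000 UMIs, Cxcl9 was seen in 3.33% of these cells against 0.671% of the others in the vehicle library, and in 6.15% against 1.68% in the RP-6306 library. Cd72, a C-type lectin receptor, had 21 UMIs in 12 vehicle cells and 50 UMIs in 26 RP-6306 cells. Its level of 39.8 and 77.8 CPM lay below the 90.8 and 108 CPM of the other C1q-positive cells in the same libraries, a log2 ratio of -1.17 and -0.47. The cells are therefore described by the class II and C1q genes of their rule. C1q did not set them apart from the other C1q-positive cells. Its median share of a cell's UMIs was 0.612% in the vehicle library and 0.740% in the RP-6306 library. In the same order it was 0.782% and 0.799% in Arg1-positive cells, with Arg1 at 3 or more UMIs. It was 1.15% and 1.28% in resident-like cells, with Folr2, Lyve1 and Fcna at 2 or more. In the remaining, low class II cells it was 0.433% and 0.647%.

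Class II content varied widely from cell to cell. The 4 class II genes of the rule summed to between 20 and 227 UMIs per vehicle cell, with a median of 93, and to between 20 and 249 per RP-6306 cell, with a median of 70. As a share of each cell's UMIs the medians were 1.77% and 1.71%. The vehicle cells were deeper, with a median of 5479 UMIs in all against 4574 in the RP-6306 cells. At least 100 class II UMIs were found in 43 of 91 vehicle cells and in 43 of 136 RP-6306 cells. Just inside the limit, 8 vehicle and 18 RP-6306 cells had 20 to 29 class II UMIs. Just outside it, 17 and 18 cells that met all the other limits had 10 to 19. C1q content spanned 3 to 143 UMIs in the vehicle cells and 3 to 137 in the RP-6306 cells, with medians of 30 and 31.5. The plot of class II against C1q UMIs shows a continuous spread across the limit and not a gap.

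**Figure D1:**
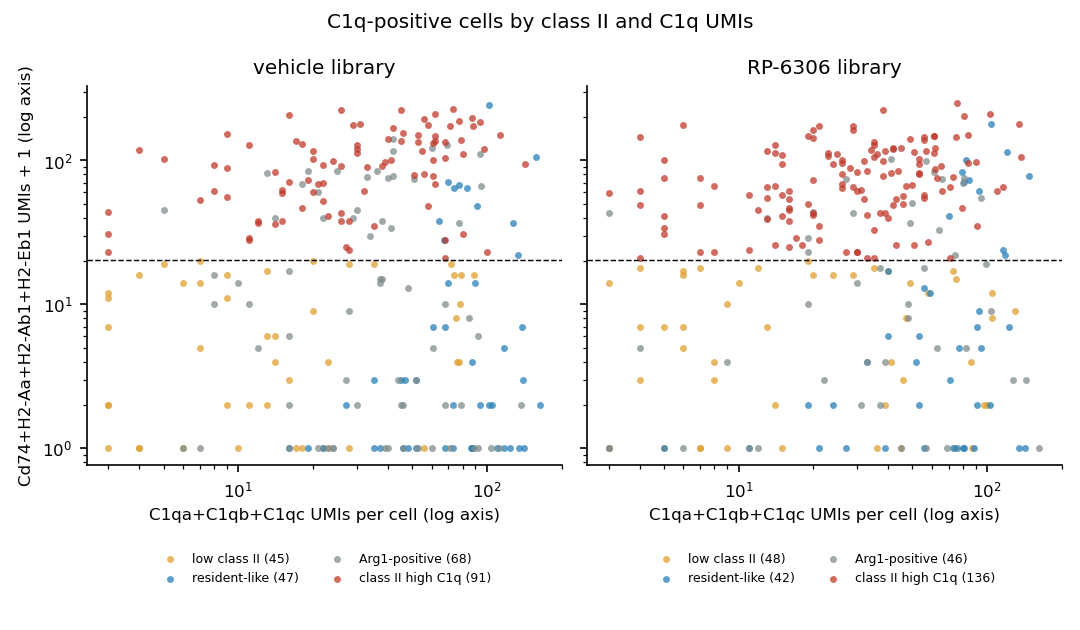
Each point is 1 C1q-positive cell, with its summed C1qa, C1qb and C1qc UMIs on the horizontal log axis and its summed Cd74, H2-Aa, H2-Ab1 and H2-Eb1 UMIs plus 1 on the vertical log axis. The dashed line marks the limit of 20 class II UMIs, and points above it that are not red are Arg1-positive or resident-like cells that the rule leaves out.

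Of the genes used by the rule, Cd74 stood at 6448 CPM in the vehicle cells and 6701 CPM in the RP-6306 cells. H2-Eb1, a class II beta chain, stood at 3895 and 3974 CPM, and H2-Ab1, the beta chain of the other class II molecule, at 2375 and 2545 CPM. H2-Aa, its alpha chain, stood at 4532 CPM in the vehicle cells and 4045 CPM in the RP-6306 cells, a log2 ratio of -0.16. C1qa stood at 2545 and 2939 CPM, C1qb at 2123 and 2274 CPM and C1qc at 2144 and 2610 CPM. Between the libraries the 4 class II genes thus differed by at most 0.16 on the log2 scale, and the C1q genes were higher in the RP-6306 cells by 0.10 to 0.28.

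The share of these cells was higher in the RP-6306 library. They made up 36.3% of the C1q-positive cells in the vehicle library (91 of 251, exact binomial interval 30.3 to 42.5%) and 50% in the RP-6306 library (136 of 272, 43.9 to 56.1%). The difference was 13.7 percentage points (4.99 to 22.3), and it kept its sign under the 14 alternatives that changed which cells were counted, between 10.96 and 17.8 points. Arg1-positive cells, which express the arginine-degrading enzyme that marks a state of tumour macrophage, made up 27.1% of C1q-positive cells in the vehicle library and 16.9% in the RP-6306 library, a difference of -10.2 points (-17.5 to -2.83). The share of resident-like cells, with 2 or more UMIs of Folr2, Lyve1 and Fcna, was 18.7% and 15.4%, and that of low class II cells was 17.9% and 17.6%. The intervals of these last differences included 0. Of all retained barcodes, class II high C1q cells were 0.954% and 1.32%, a difference of 0.365 points (0.0633 to 0.668). Shares of 1 library each can differ between tumours without any treatment, and that spread was not measured here.

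**Figure D2:**
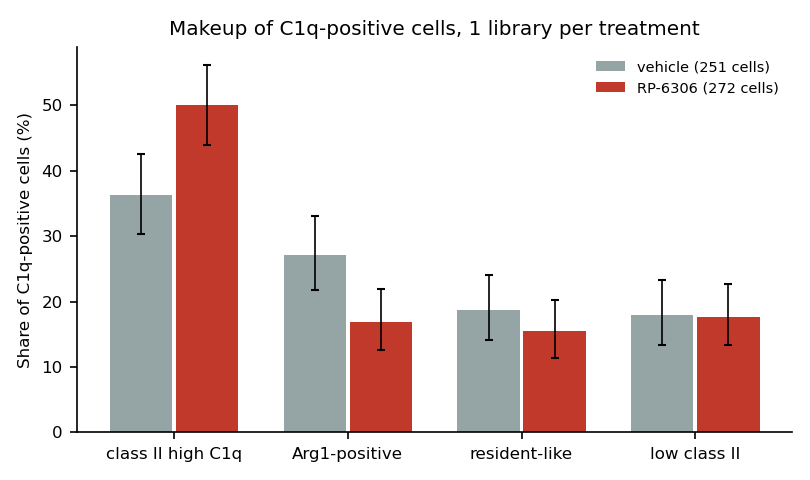
Bars give the share of C1q-positive cells that fell into each of 4 sets in the vehicle library (grey) and the RP-6306 library (red), and error bars are exact 95% binomial intervals, which cover counting error only. Class II high C1q cells were 36.3% and 50%, and Arg1-positive cells were 27.1% and 16.9%.

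The next comparison asked what else these cells shared. It was made within each library against the other C1q-positive cells, and a gene was called where its log2 ratio of CPM + 1 was at least 1 in size, with the same sign, in both libraries. Of 3756 genes outside the rule with at least 50 UMIs in each library, 12 were higher (0.319%) and 47 were lower (1.25%) in class II high C1q cells. The choice of cells can carry other genes with it, so these are descriptions. Median depths were 5479 against 5123.5 UMIs in the vehicle library and 4574 against 5228 in the RP-6306 library.

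Genes of the class II loading pathway were higher. H2-DMb1, the beta chain of the H2-DM chaperone that exchanges peptide on class II, stood at 491 CPM against 109 CPM in the vehicle library and at 498 CPM against 149 CPM in the RP-6306 library. Its log2 ratios were 2.17 and 1.74. H2-DMa, the partner chain, stood at 487 against 167 CPM and at 465 against 149 CPM, log2 ratios of 1.54 and 1.64. H2-DMb1 was detected in 80 of 91 and 117 of 136 cells. Ciita itself had few UMIs, 23 and 28, and stood at 43.6 CPM in both libraries against 7.75 and 5.41 CPM in the other C1q-positive cells. In cells thinned to 2000 UMIs, Ciita was seen in 10.0% of vehicle and 8.46% of RP-6306 class II high C1q cells, and in at most 0.0458% of keratin-positive barcodes, taken as the background. Not all of the pathway followed. Of 8 class II accessory genes with enough UMIs, 5 were higher in both libraries and 2 of these by 2-fold, with 27.7% of all genes tested higher in both. Lgmn, a lysosomal endopeptidase that processes antigens, was lower, at 680 against 1456 CPM and at 886 against 1711 CPM. Ifi30, the thiol reductase of antigen processing, stood at 1094 against 1176 CPM and at 1122 against 1198 CPM.

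Several other genes that were higher than in the other C1q-positive cells as a whole are known from monocytes and from myeloid cells recently derived from them. Low class II cells alone are compared further below. Ccr2, the receptor that brings monocytes out of the bone marrow, stood at 371 CPM against 142 CPM in the vehicle library and at 243 against 81.1 CPM in the RP-6306 library, log2 ratios of 1.38 and 1.57. Plac8, abundant in monocytes, stood at 307 against 152 CPM and at 504 against 203 CPM. Itgax, which encodes the integrin CD11c of dendritic cells and some macrophages, stood at 106 against 46.5 CPM and at 118 against 55.4 CPM. Napsa, an aspartic protease, had log2 ratios of 1.35 and 2.55, and Ear2, an eosinophil-associated ribonuclease also found in monocytes, had 1.90 and 3.08. Sorl1, a sorting receptor, had log2 ratios of 1.38 and 1.37. Without the cells that carried lineage markers of other cell types, Ccr2, Ear2 and Napsa had log2 ratios of 0.49, 0.25 and 0.67 in the vehicle library, and Sorl1 one of 0.77 in the RP-6306 library. Of all genes, 3 in place of 12 were then called higher. That setting goes by Mmp9 among other markers, and it takes cells from both sides of the comparison. H2-DMb1 and H2-DMa stayed above 2-fold in both libraries under every alternative. Of 12 monocyte genes measured in this comparison, 11 were higher in both libraries and 3 by 2-fold. Over all genes tested, the shares were 27.7% and 0.319%. The list's median log2 ratio was 0.53 and 0.42, against -0.03 and -0.02 over all genes tested. The list's sum was not higher against each kind of other cell. It was 7272 and 5513 CPM in class II high C1q cells and 7913 and 6820 CPM in low class II cells. In Arg1-positive cells it was 6366 and 5564 CPM, and in resident-like cells 3585 and 2253 CPM. Il1b, the inflammatory cytokine, stood at 2625 against 1460 CPM and at 3020 against 1671 CPM, and it was chosen for mention as 1 of the 2 most abundant genes of the cytokine list. The remaining called genes were the tetraspanin Tspan13, the early lymphoid and myeloid activation marker Cd69, Tmem131 and Ccl5. Plac8, Itgax, Cd69, Tspan13 and Tmem131 lay near the limit and were under 2-fold in at least 1 library in 7 or more of the alternatives tried.

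Ccl5, a chemokine for T cells, is in that count because of single cells. In the vehicle library 88 of its 91 UMIs came from 1 cell, and in the RP-6306 library 63 of its 76 UMIs came from 1 cell. The vehicle cell was deep, with 13920 UMIs, 94 of them C1q and 61 Lyz2. The RP-6306 cell had 3587 UMIs, with 4 C1q, 1 Lyz2 and 13 UMIs of Ccr7, the lymph-node homing receptor of mature dendritic cells. Without the cells of 10 or more Ccl5 UMIs the log2 ratios of Ccl5 were 0.66 and 1.46, and 11 genes were called higher.

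Genes that were lower included most of the resident-like macrophage list. F13a1, the coagulation factor XIII A subunit, stood at 79.6 CPM against 603 CPM in the vehicle library and at 125 against 933 CPM in the RP-6306 library, log2 ratios of -2.91 and -2.90. Pf4, a chemokine of platelets and tissue macrophages, stood at 286 against 1292 CPM and at 380 against 1442 CPM. Mrc1, the mannose receptor CD206, stood at 203 against 670 CPM and at 241 against 805 CPM. Stab1, a scavenger receptor, and Gas6, a ligand of the efferocytosis receptors Axl and Mertk, had log2 ratios of -2.89 and -1.88 and of -2.73 and -2.42. All 11 measured genes of the resident-like list were lower in both libraries, 10 of them by 2-fold, with 34.2% of all genes tested lower in both. The rule itself leaves out cells with more than 1 UMI of Folr2, Lyve1 and Fcna together, so this list is close to the choice of cells.

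Chemokines were also among the lower genes. Ccl12, a ligand of Ccr2, stood at 646 against 2166 CPM in the vehicle library and at 800.03 against 3084 CPM in the RP-6306 library. Ccl8, another chemokine, had 15 UMIs in 2 of the vehicle cells and 3 UMIs in 2 of the RP-6306 cells, against 162 and 134 UMIs in the other C1q-positive cells. Fcgrt, the neonatal Fc receptor chain that recycles IgG, the Fc receptor-like gene Fcrls, Ms4a7, Rnase4 and Npl were also lower, with log2 ratios between -2.87 and -1.69. Of the chemokine and cytokine list, 12 of 18 measured genes were lower in both libraries and 6 by 2-fold, against 34.2% and 1.25% of all genes tested.

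Some lysosomal and lipid genes had lower levels. Of 17 lysosome and proteolysis genes, 11 were lower in both libraries and 2 of these by 2-fold, and of 12 lipid and phagocytic genes, 9 were lower and 2 by 2-fold. Over all genes tested, 34.2% were lower in both and 1.25% by 2-fold. The lysosome list summed to 10926 and 11517 CPM in class II high C1q cells, close to the 11033 and 11996 CPM of low class II cells. It summed to 14469 and 16147 CPM in Arg1-positive cells and to 14845 and 16081 CPM in resident-like cells. The lipid list, at 6628 and 6718 CPM, was also below low class II cells, at 9825 and 9393 CPM. Ctsb, a lysosomal cysteine protease, stood at 1118 against 2364 CPM and at 1370 against 2613 CPM. Apoe, the lipid carrier of foamy macrophages, stood at 2178 against 4428 CPM and at 2914 against 5817 CPM. Fabp5, a fatty acid binding protein, stood at 1442 against 2766 CPM and at 1150 against 2725 CPM. Psap, the saposin precursor, barely differed, at 2998 against 2911 CPM and at 3107 against 3052 CPM.

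Each of the 3 kinds of other C1q-positive cells was also compared separately. F13a1 was lower against all 3, with log2 ratios of -3.35 and -3.41 against Arg1-positive cells, -2.88 and -3.07 against resident-like cells and -1.41 and -1.11 against low class II cells. H2-DMb1, H2-DMa and Ear2 were called higher against both Arg1-positive and low class II cells. Against Arg1-positive cells, 13 of 2535 genes were higher in both libraries (0.513%) and 38 were lower (1.5%). Spp1, the secreted phosphoprotein osteopontin, was among the lower ones at 572 against 2683 CPM in the vehicle library and at 668 against 3039 CPM in the RP-6306 library. Against resident-like cells, 40 of 2557 genes were higher (1.56%) and 49 were lower (1.92%). Ccr2 stood at 371 against 11.2 CPM there in the vehicle library and had no UMI in the 42 resident-like cells of the RP-6306 library, while Vcan, a matrix proteoglycan of monocytes, stood at 172 against 5.62 CPM and at 134 against 3.76 CPM. Against low class II cells only 7 of 2185 genes were higher (0.320%) and 3 were lower (0.137%). These included H2-DMb1, at 491 against 90.5 CPM and at 498 against 125 CPM, and, among the lower genes, Id1 (which blocks helix-loop-helix factors), at 53.1 against 208 CPM and at 48.3 against 116 CPM. Of Ccr2, Plac8, Itgax, Napsa, Ear2 and Sorl1, only Ear2 was among the largest differences on the higher side. It stood at 81.5 against 37.3 CPM and at 87.2 against 0 CPM. The low class II cells were the shallowest, with median depths of 3699 and 3367.5 UMIs, and the part of depth in placing a cell below the class II limit was not tested.

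**Figure D3:**
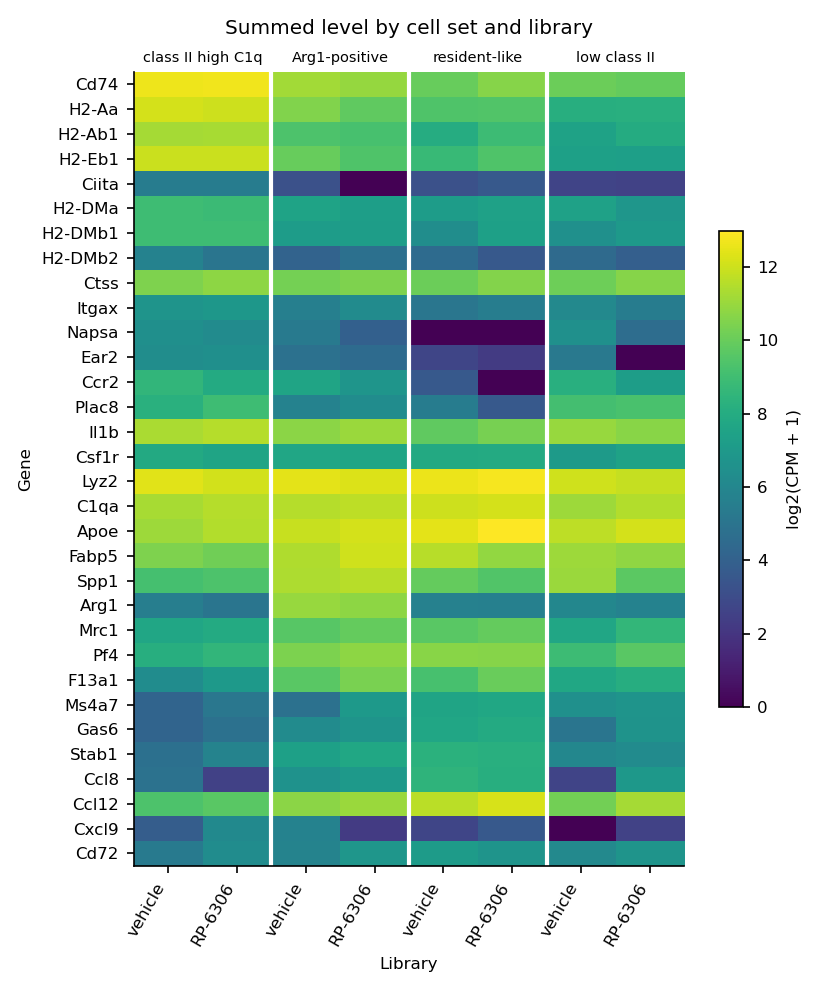
Colour gives log2(CPM + 1) of the UMIs summed over each of 4 sets of C1q-positive cells in each library, for 32 genes. The class II genes and the H2-DM genes are brightest in the 2 columns of class II high C1q cells, while F13a1, Gas6, Stab1 and Mrc1 are brighter in the Arg1-positive and resident-like columns, and Cd72 is not brighter in either of these columns than in the other columns of the same library.

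The second comparison asked how class II high C1q cells of the RP-6306 library differed from those of the vehicle library. Of 3427 genes with at least 50 UMIs over both libraries, 27 were at least 2-fold higher in the RP-6306 cells (0.788%) and 10 were at least 2-fold lower (0.292%). The median log2 ratio of the 6260 genes with at least 20 UMIs was -0.00, and 49.8% of them were higher. The plot of CPM in the 2 libraries shows a narrow band along the diagonal.

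**Figure D4:**
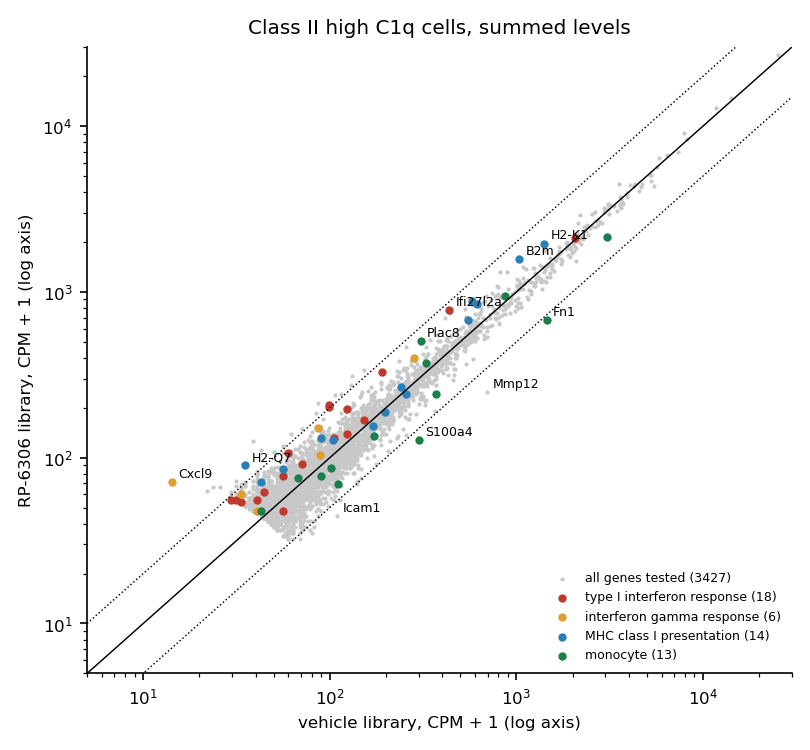
Each point is a gene, with its CPM + 1 in class II high C1q cells of the vehicle library on the horizontal log axis and of the RP-6306 library on the vertical log axis. The solid line marks equal levels and the dotted lines 2-fold differences, and red, yellow and blue points (interferon and class I lists) lie mostly above the solid line while Mmp12, S100a4, Fn1 and Icam1 lie below the lower dotted line.

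Genes that interferons induce had higher levels in the RP-6306 cells. Of 30 measured genes of the type I interferon list, 29 had a higher CPM in the RP-6306 library, with a median log2 ratio of 0.67. Of these, 6 were at least 2-fold higher and none was 2-fold lower. Of all genes with at least 20 UMIs, 2.28% were 2-fold higher and 2.03% were 2-fold lower. Ifi27l2a, an interferon-induced mitochondrial protein gene, stood at 436 CPM (381 to 496) in the vehicle cells and at 778 CPM (711 to 850) in the RP-6306 cells. Slfn1, a Schlafen family gene, stood at 98.6 CPM (73.6 to 129) and 202 CPM (169 to 240), and was seen in 29 of 91 and 76 of 136 cells. Ms4a4c, a membrane protein gene of interferon-exposed myeloid cells, stood at 98.6 and 205 CPM, a ratio of 2.09 (1.502 to 2.93). Slfn1 and Ms4a4c were near the limit and fell under 2-fold in 9 and 7 of the alternatives tried. Ifitm3, an antiviral membrane protein gene and the most abundant of the list, stood at 2072 and 2109 CPM.

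Type I interferon genes made up a median of 0.332% of a vehicle cell's UMIs (0 to 2.13%) and 0.431% of an RP-6306 cell's (0.0776 to 2.36%), so the ranges overlapped almost completely. Their summed level was 1.31 times higher in the RP-6306 cells (1.24 to 1.38), and 1.44 times higher (1.38 to 1.52) in the other C1q-positive cells as a whole. The kinds of other cells were unlike in this: the list summed to 3558 and 3516 CPM in Arg1-positive cells, 2786 and 4533 CPM in resident-like cells and 3557 and 6439 CPM in low class II cells. It summed to 1340 and 1717 CPM in keratin-positive barcodes. Isg15, a ubiquitin-like modifier, stood at 123 and 195 CPM in class II high C1q cells and at 86.4 and 206 CPM in the others. Without the cells that carried 2 or more UMIs of lineage markers of other cell types, 16 of 19 measured type I genes were higher, with a median log2 ratio of 0.21. That setting removed 37 vehicle and 47 RP-6306 cells, and its markers include Mmp9. The genes Ifnb1 and Ifng, which encode the inducing cytokines, had no UMI in these cells in either library, which allows up to 5.69 CPM in the vehicle cells and 4.67 CPM in the RP-6306 cells.

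Genes most tied to interferon gamma showed a similar picture at low levels. Of 15 measured genes 13 were higher in the RP-6306 cells, with a median log2 ratio of 0.76. The summed level of the list was 1.45 times higher (1.29 to 1.63), against 1.502 times (1.37 to 1.65) in the other C1q-positive cells. The list made up a median of 0.0555% of a vehicle cell's UMIs (0 to 0.669%) and 0.0652% of an RP-6306 cell's (0 to 1.59%), so the ranges overlapped. By kind, the list summed to 951 and 853 CPM in Arg1-positive cells, 838 and 1373 CPM in resident-like cells, 761 and 1788 CPM in low class II cells and 347 and 518 CPM in keratin-positive barcodes. Cxcl9 stood at 13.3 CPM (5.33 to 27.3) in the vehicle cells and at 70.0 CPM (51.1 to 93.7) in the RP-6306 cells, a ratio of 5.28 (2.36 to 13.9). The highest single cell held 4 of the 7 UMIs and 13 of the 45. Without those cells 3 and 32 UMIs remained, a ratio of 8.69 (2.72 to 44.3). In the other C1q-positive cells the level of Cxcl9 ran the other way, at 23.3 CPM and 6.76 CPM, from 21 and 5 UMIs. Their shares of thinned cells with Cxcl9, given above, were higher in the RP-6306 library, as in class II high C1q cells. Few of the other cells held Cxcl9, so no direction is drawn from their level. Thinned to 2000 UMIs, Cxcl9 was seen in 3.33% of vehicle cells (0.693 to 9.43%) and 6.15% of RP-6306 cells (2.69 to 11.8%), intervals that overlap, against 0.0449% and 0.0915% of keratin-positive barcodes. Cxcl10, a related chemokine, stood at 282 and 398 CPM, with 38 of 149 UMIs and 89 of 256 UMIs in the highest cell. Without the highest cell of each library its ratio was 1.23 (0.959 to 1.57). Fcgr4, an activating Fc receptor, stood at 85.3 CPM (62.2 to 114) and 149 CPM (121 to 183), and the guanylate-binding protein gene Gbp8 at 32.2 and 59.1 CPM. Ciita did not differ, with 23 UMIs and 28 UMIs, or 43.6 CPM in both libraries, a ratio whose interval ran from 0.555 to 1.82.

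Most MHC class I genes had higher levels in the RP-6306 cells, and the class II accessory genes differed less. Of 18 measured class I presentation genes 14 were higher in the RP-6306 cells, with a median log2 ratio of 0.46, and their summed level was 1.36 times higher (1.30 to 1.42), against 1.21 times (1.17 to 1.26) in the other C1q-positive cells. H2-K1, a classical class I heavy chain, stood at 1410 CPM (1311 to 1515) and 1953 CPM (1847 to 2065). B2m, the class I light chain, stood at 1035 CPM (950 to 1125) and 1575 CPM (1480 to 1675). Tap2, a subunit of the peptide transporter, stood at 22.7 and 51.4 CPM from 12 and 33 UMIs. H2-Q7, a non-classical class I gene with near-identical relatives among which its reads could be split, stood at 34.1 and 88.7 CPM, a log2 ratio of 1.35. Keratin-positive barcodes carried these genes too: the list summed to 6469 and 7476 CPM there, and to 5506 and 7476 CPM in class II high C1q cells, and the part of free tumour RNA in the difference was not tested. H2-Q7 was nearly absent from the keratin-positive barcodes, at 0.298 and 0.686 CPM. Of 11 class II accessory genes 7 were higher, with a median log2 ratio of 0.02, and the list summed to 4619 and 5166 CPM, a ratio of 1.12 (1.06 to 1.18). Ctss, the cysteine protease that trims the invariant chain, stood at 1429 and 1768 CPM, and H2-DMb2, the second H2-DM beta chain, at 53.1 and 32.7 CPM.

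**Figure D5:**
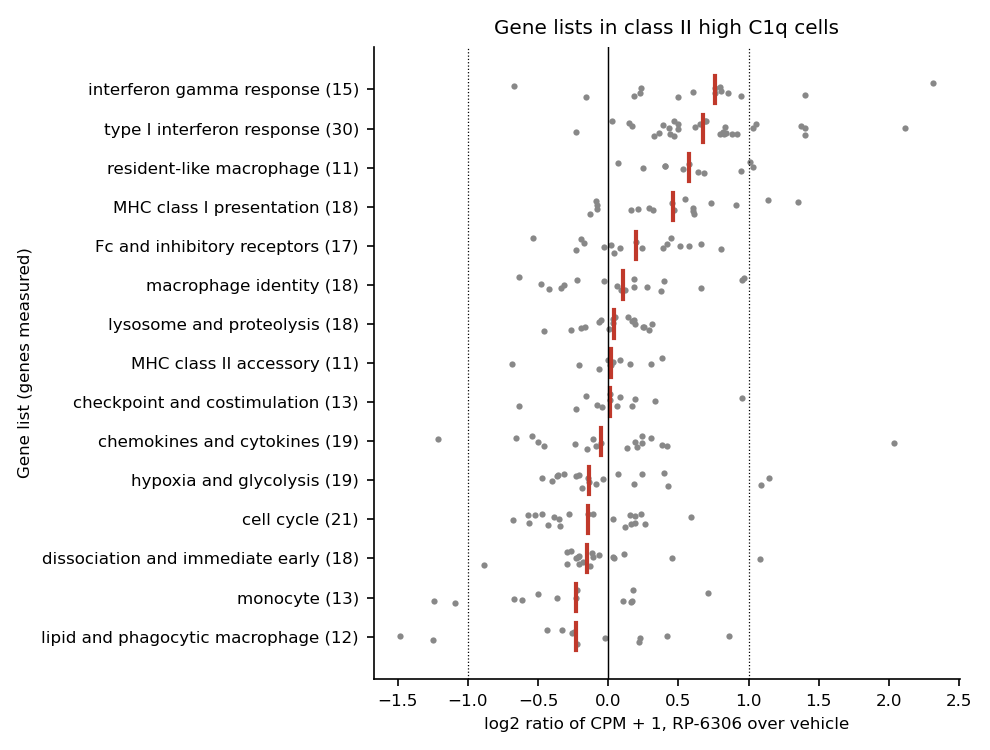
Grey points are genes of 15 lists with at least 20 UMIs over both libraries, placed by their log2 ratio of CPM + 1 between the RP-6306 and vehicle class II high C1q cells, and red bars are list medians. The interferon gamma, type I interferon, resident-like and class I medians lie between 0.46 and 0.76, and the monocyte and lipid medians at -0.23.

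Genes on the lower side included Mmp12, Fn1, S100a4 and Icam1. Mmp12, the macrophage elastase, stood at 694 CPM (624 to 768) in the vehicle cells and at 247 CPM (210 to 289) in the RP-6306 cells, a ratio of 0.357 (0.294 to 0.431). Its highest cell held 40 of 366 and 17 of 159 UMIs, so the difference did not rest on single cells, and it was seen in 45.6% of vehicle and 19.2% of RP-6306 cells thinned to 2000 UMIs. Keratin-positive barcodes showed Mmp12 in 1.12% and 1.35% after the same thinning. In the other C1q-positive cells Mmp12 stood at 385 and 399 CPM. Fn1, the matrix protein fibronectin, stood at 1450 CPM (1349 to 1556) and 679 CPM (616 to 745), and at 979 and 675 CPM in the others. S100a4, a calcium-binding protein, stood at 300 and 126 CPM, and its level in keratin-positive barcodes was 354 and 245 CPM. Icam1, the adhesion molecule that binds leukocyte integrins, stood at 108 CPM (81.8 to 140) and 43.6 CPM (28.96 to 63.0). Of the 10 genes called lower, 0.292% of all genes tested, 2 are in the monocyte list. Of 13 monocyte genes 2 were 2-fold lower, against 2.03% of all genes with at least 20 UMIs. In all, 5 were higher and 8 lower, where 49.8% of all genes were higher, so that count does not set the list apart. Its median log2 ratio was -0.23. The list's sum was 0.758 times that of the vehicle cells (0.724 to 0.794), against 0.845 times in the other C1q-positive cells. Plac8 went the other way within that list, at 307 and 504 CPM, while Ccr2 stood at 371 and 243 CPM. S100a6, at 3051 and 2154 CPM, is the most abundant gene of the list and stood at 16357 and 16199.7 CPM in keratin-positive barcodes. The whole list summed to 7272 and 5513 CPM, so the ratio of sums leans on this gene. The part of free tumour RNA in it was not tested.

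Genes of several other kinds were 2-fold higher in the RP-6306 cells. Cytip, a cytohesin-interacting protein of leukocytes, stood at 131 CPM (102 to 166) and 310 CPM (268 to 356), and after thinning it was seen in 21.1% of vehicle cells (13.2 to 31.0%) and 47.7% of RP-6306 cells (38.9 to 56.6%). In the other C1q-positive cells it stood at 106 and 96.0 CPM. Gpr65, an acid-sensing receptor, stood at 41.7 and 111 CPM, and at 80.8 and 83.8 CPM in the others. Il1r2, the decoy receptor of interleukin 1, stood at 83.4 and 185 CPM, and at 60.9 and 63.6 CPM in the others. Ly6a, an interferon-inducible surface protein, stood at 85.3 and 212 CPM, and keratin-positive barcodes carried 172 and 192 CPM of it. In the other C1q-positive cells it stood at 55.4 and 103 CPM, a ratio of 1.86. Hilpda, a lipid droplet protein gene induced by hypoxia, and Hmox1, haem oxygenase, had log2 ratios of 1.15 and 1.09, and were under 2-fold in 6 and 8 of the 20 alternatives. Hmox1 had a log2 ratio of 0.52 after thinning. Pttg1, Thumpd1, Tor3a and Creld2 completed the 10 named of 24 that met the naming rule, at ratios between 2.28 and 2.99. In the other C1q-positive cells Creld2 stood at 63.1 and 157 CPM, a ratio of 2.49, Tor3a at 29.9 and 62.2 CPM, a ratio of 2.08, and H2-Q7 at 29.9 and 64.9 CPM, a ratio of 2.17. Of the 10 named, Ly6a and Tor3a stayed at 2-fold or more under every alternative, as did Mmp12 and Icam1 on the lower side. Cytip had a log2 ratio of 0.70 without the cells that carried lineage markers of other cell types, and H2-Q7 one of 0.88 at a class II limit of 40 UMIs. S100a4 had a log2 ratio of -0.67 after thinning, and Fn1 one of -0.85 where no UMI of Arg1, Folr2, Lyve1 or Fcna was allowed.

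Syce2, Psip1, Otulin, Map1lc3a and Id3 were the other named genes on the lower side, with ratios between 0.430 and 0.495. They were less than 2-fold lower in 6, 6, 5, 10 and 11 of the 20 alternatives, in that order. Id3, an inhibitor of helix-loop-helix factors, stood at 138 and 68.5 CPM, and was also lower in the other C1q-positive cells, at 184 and 98.7 CPM. The macrophage list was even, with 11 of 18 genes higher and a median log2 ratio of 0.10. All 11 measured resident-like genes were higher in the RP-6306 cells, where 49.8% of all genes with at least 20 UMIs were higher. Their median log2 ratio was 0.57. Among them were Clec10a, a C-type lectin, at 39.8 and 82.5 CPM and Stab1 at 26.5 and 54.5 CPM. In the other C1q-positive cells 12 of 14 measured genes of this list were higher too. The list's sum was 1.20 times higher there (1.15 to 1.25), against 1.35 times (1.22 to 1.49) in class II high C1q cells. The list remained far below the other C1q-positive cells, summing to 1251 and 1686 CPM against 4674 and 5608 CPM.

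Cell cycle genes did not stand out. Pkmyt1, the target of RP-6306, had 1 UMI in the vehicle cells and 9 UMIs in the RP-6306 cells, too few for a level. Of 21 cell cycle genes 9 were higher and 12 lower, with a median log2 ratio of -0.15 and a summed ratio of 0.858 (0.805 to 0.914). At least 3 UMIs of 8 cell cycle genes were found in 21 of 91 vehicle cells (23.1%, 14.9 to 33.1%) and in 23 of 136 RP-6306 cells (16.9%, 11.03 to 24.3%). Of 18 immediate early and related genes, which tissue dissociation can raise, 5 were higher and 13 lower, with a median log2 ratio of -0.15. In the other C1q-positive cells 3 of 18 were higher, with a median of -0.29. Against those cells within each library, 12 of 18 were higher in both libraries, with 27.7% of all genes tested higher in both. Fos stood at 4685 and 4484 CPM between the libraries, while the heat shock gene Hsph1 stood at 129 and 274 CPM. It also stood at 150 and 281 CPM in keratin-positive barcodes.

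Among single cells, class II content went with other class II machinery. Across cells, the Spearman rho between the class II share and the share of accessory class II genes was 0.50 over 91 vehicle cells and 0.46 over 136 RP-6306 cells. The rho with interferon gamma genes was 0.14 and 0.07, with type I interferon genes 0.23 and -0.09, and with cell cycle genes -0.32 and -0.24. The rho between interferon gamma and type I genes was 0.34 and 0.38. Cells of 1 library share their treatment and their sequencing, and all these shares come from the same total, so the values are descriptions.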

How the data were processed

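Tumour cells were measured in 2 libraries, 1 per treatment. The deposited matrices hold raw UMI counts, per the file headers and their whole-number values. The headers name Cell Ranger 7.1.0 while the submitters' processing notes name 2.1.1 and mm10, a difference that was not resolved. Other filters applied before deposit are not given in the sources used here. Gene names are those of the files, and 52081 of 55357 identifiers, and all 420 genes named or listed, were found in GENCODE M21 (GRCm38).

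Counts were summed over cells of a set and library and scaled to 1000000 (CPM, computed here). Ratios use log2(CPM + 1), which understates low genes. Intervals are exact Poisson (level), exact conditional (ratio of 2 levels), Clopper-Pearson (share) and square-and-add (difference of shares). Genes needed 50 UMIs, or 20 for lists. For shares of cells with a UMI, cells were thinned to 2000 UMIs, which left out 1 vehicle and 6 RP-6306 cells. No test was made, since cells are not replicates. Doublets were not called. The members, the 15 response lists and the 10 marker lists were chosen with earlier results of these data known. Between libraries, genes were named at 50 CPM, a 2-fold ratio, at most 25% of UMIs in 1 cell and at least 0.1 of the level in keratin-positive barcodes, 10 per direction at most. Against other C1q-positive cells 12 per direction were named, and of each list the 2 most abundant and 2 most different genes. Mitochondrial, ribosomal, model and receptor segment genes, and those of the rule, were not named by size. Libraries shared 34 barcodes, of which 0 vehicle and 1 RP-6306 belonged to the cells described. Near-identical genes (class I, Gbp, Ifit, H2-DMb) may lose shared reads. The scripts were tested on simulated data and run in Python 3.11.15 with numpy 2.4.6, scipy 1.17.1 and pandas 2.3.3.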

Additional observations from a re-analysis of the deposited data

Results flagged for a closer look

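For 3 genes the difference between class II high C1q cells and other C1q-positive cells ran in opposite directions in the vehicle and RP-6306 libraries, with counting intervals on either side of equality. The difference between the libraries was not tested. Mmp12, the macrophage elastase, had a log2 ratio of 0.85 in the vehicle library and -0.69 in the RP-6306 library. Thumpd1, which assists tRNA acetylation, had -0.93 and 0.77. Dusp1, a phosphatase of MAP kinases that is also induced by tissue dissociation, had -0.13 and 0.23.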

How the results depend on the processing

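The difference in share kept its sign in the 14 of 20 alternatives that change which cells are counted. Of 1440 values of genes at least 2-fold apart, 1435 kept their sign and 158 fell under 2-fold. Counts of genes moved with the filters. Between libraries, 27 higher and 10 lower genes became 16 and 5 with a pseudocount of 10 CPM, 143 and 127 with a lower UMI minimum, and 13 and 4 with a higher one. The lower genes became 21 at a class II limit of 40 UMIs, 19 at 0.5% of UMIs, 16 without cycling cells and 18 in cells of 3000 to 7000 UMIs. Against other C1q-positive cells, the 12 higher genes became 7 (pseudocount of 10), 22 and 4 (lower and higher UMI minimum), 6 (keratin limit of 1), 3 (lineage markers left out), 6 (deepest 5% left out), 7 (without cycling cells), 3 (thinned) and 6 (3000 to 7000 UMIs). The 47 lower genes became 100, 31, 18 and 25 with the lower minimum, the higher minimum, lineage markers left out and thinning. Members numbered 58 in the vehicle library with no UMI of Arg1, Folr2, Lyve1 or Fcna, and 54 and 89 with lineage markers left out.

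Counts of list genes moved under 4 settings. Interferon gamma genes higher were 6 of 6 (higher minimum), 8 of 10 (lineage markers left out), 4 of 5 (thinned) and 8 of 9 (3000 to 7000 UMIs). Type I genes higher were 17 of 18, 16 of 19 and 15 of 17 in the first 3 of these. Class II accessory genes higher were 4 of 10, 4 of 10 and 4 of 11 in the last 3. List medians ranged from 0.48 to 0.80 for interferon gamma, 0.21 to 0.92 for type I and 0.36 to 0.60 for class I genes. The log2 ratio of Ccl5, held by single cells, reversed to -1.08 (keratin limit of 1), -3.09 (no UMI of Arg1 or resident genes), -1.22 (deepest 5% left out) and -1.92 (3000 to 7000 UMIs) in the vehicle library, and to -3.54 (lineage markers left out) in the RP-6306 library. The alternatives that left out cells rich in Ccl5 and kept cells of 3000 to 7000 UMIs were chosen after seeing the data.

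Depth limits this set: 91 and 136 cells gave 527624 and 642472 UMIs, so a gene with no UMI may stand at up to 5.69 and 4.67 CPM. No paired analysis was possible because each treatment has 1 library and no result comes from a test.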
